A study of Mus musculus with 6 samples.

Results

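Vascular endothelial growth factor (VEGF) and the angiopoietins are secreted ligands that astrocytes and mural cells (pericytes and smooth muscle cells) present to the vessel wall. VEGF-A binds the receptor tyrosine kinases VEGFR1 (Flt1) and VEGFR2 (Kdr), VEGF-B binds VEGFR1, and neuropilin 1 (Nrp1) acts as a co-receptor, and angiopoietin 1 and angiopoietin 2 (Angpt1 and Angpt2) bind the receptor Tie2 (Tek). In brain, these receptors are best known from endothelial cells, where VEGFR2 drives growth and permeability, VEGFR1 holds VEGF-A back and Tie2 keeps the vessel quiescent. All 8 genes of this ligand and receptor set, Vegfa, Vegfb, Angpt1, Angpt2, Flt1, Kdr, Nrp1 and Tek, were found by symbol among the 32285 genes of the count matrices.

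The cells came from the amygdala of male wildtype C57BL/6N mice and were measured by droplet single-cell RNA-seq in 3 gene expression libraries, each a pool of mice whose cells carried hashtag antibodies. Every mouse was taken 90 min after the start of behaviour, and dissection and digestion were done in the presence of actinomycin D, triptolide and anisomycin. Cells had been gated with ACSA2, an antibody to the astrocyte sodium pump subunit ATP1B2, alongside CD11b, CD45 and O1. There were 4 mice each in NoFC (placed in the chamber without shock), FC (shocked, contextual fear conditioning), NoFR and FR. NoFR mice were conditioned and kept in the home cage without recall, and the paper places them a day after conditioning. In NoFR the 90 min is thus not a time since shock. FR mice were conditioned and returned to the chamber for fear recall a day later. The p-values between cell classes measure the spread between the 3 pools and those between behavioural groups the spread between mice. Groups were unevenly spread over the libraries. FC mice lay in libraries 1 and 2, NoFR mice in libraries 1 and 3, and NoFC and FR mice in all 3. Where a test between mice did not use library, its p-value mixes the spread of mice with that of libraries.

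Over all 13546 barcodes, 4 classes were set by unique molecular identifier (UMI) counts of 6 marker genes that are not in the set. Astrocytes (at least 20 UMIs of Slc1a2 and Slc1a3, at most 3 of Vtn and Rgs5) numbered 8755. Pericytes (at least 10 UMIs of Vtn and Rgs5, at most 5 of Slc1a2 and Slc1a3, fewer than 5 of Acta2 and 3 of Dcn) numbered 2211. There were 22 Acta2 cells (5 or more Acta2 UMIs, 5 to 10 per library) and 39 Dcn cells (3 or more Dcn UMIs, 12 to 15 per library). Another 2 barcodes met more than 1 definition and 2517 met none.

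The libraries held 31700569 to 42350059 UMIs, and the median cell held 9888 UMIs among astrocytes, 4976 among pericytes, 6706.5 among Acta2 cells and 6395 among Dcn cells. The pericyte marker list summed to 29034 to 29145 CPM (UMI counts of a gene scaled to 1e+06 UMIs of the class and library) in pericytes against 141 to 160 in astrocytes, and the smooth muscle list to 6264 to 11316 CPM in Acta2 cells against 1450 to 1511 in pericytes. Acta2 cells also held 7360 to 17137 CPM of the pericyte list, on average more than of the smooth muscle list (11666 against 8442 CPM). The stromal list reached 1135 to 3120 CPM in Dcn cells, which also held 15667 to 30610 CPM of the pericyte list. Astrocyte markers summed to 868 to 957 CPM in pericytes, 613 to 4738 in Acta2 cells and 1221 to 3381 in Dcn cells, against 17567 to 18088 in astrocytes. Each of these lists includes genes that set the class limits, such as Vtn and Rgs5 (12584 and 5642 CPM in pericytes). The contrasts of the sums were therefore partly fixed by the definitions. Each pericyte marker that set no limit was also higher in pericytes than in astrocytes, from Cspg4 (769 against 2.88 CPM) to Atp13a5 (4267 against 62.5). Hashtag doublets were kept in the classes and made up 1055 of the 8134 astrocytes that passed a filter on genes and mitochondrial UMIs, 666 of 2191 pericytes, 10 of 21 Acta2 cells and 9 of 38 Dcn cells. Across libraries, 18 barcode sequences recurred, and 30 of those barcodes lay in a class.

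The VEGF ligands and the receptors divided between astrocytes and pericytes, and the angiopoietins did not follow that division. Vegfa and Vegfb were higher in astrocytes, Flt1, Kdr, Tek, Angpt2 and, by a smaller margin, Nrp1 were higher in pericytes, and Angpt1 lay at a similar CPM in both. UMI counts summed per class and library were compared with edgeR's quasi-likelihood test, with library as a block and Benjamini-Hochberg adjustment over all 12194 genes tested. All 8 members passed the 0.05 threshold between pericytes and astrocytes, 5 higher and 3 lower in pericytes, where 79.8% of all genes were called, 38.2% higher and 41.6% lower, so the count itself is not a result about the members. The median log2 fold was 1.29 over the members and -0.04 over all genes tested. Of the genes called, 47.8% were higher in pericytes, against 60.0% with library sizes alone as the scale and 35.1% with DESeq2, which moved the median of all genes to 0.23 and -0.33. Apart from Angpt1, the members kept their direction under both.

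On the GRCm38 build the ligand genes lay on chromosome 17 (Vegfa, 46016993 to 46032369), chromosome 19 (Vegfb, 6982473 to 6987651), chromosome 15 (Angpt1, 42424723 to 42676977) and chromosome 8 (Angpt2, 18690263 to 18741562), all on the minus strand. The receptor genes Flt1 (147561604 to 147726011) and Kdr (75932827 to 75978458) lay on chromosome 5, minus strand, Tek on chromosome 4 (94739289 to 94874976) and Nrp1 on chromosome 8 (128358604 to 128503363), plus strand. Counts were over whole genes. Angpt2 overlaps Mcph1 and Angpt1 overlaps Gm17473, each on the other strand, and Nrp1 holds the microRNA gene Mir1903 on its own strand.

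**Figure D1:**
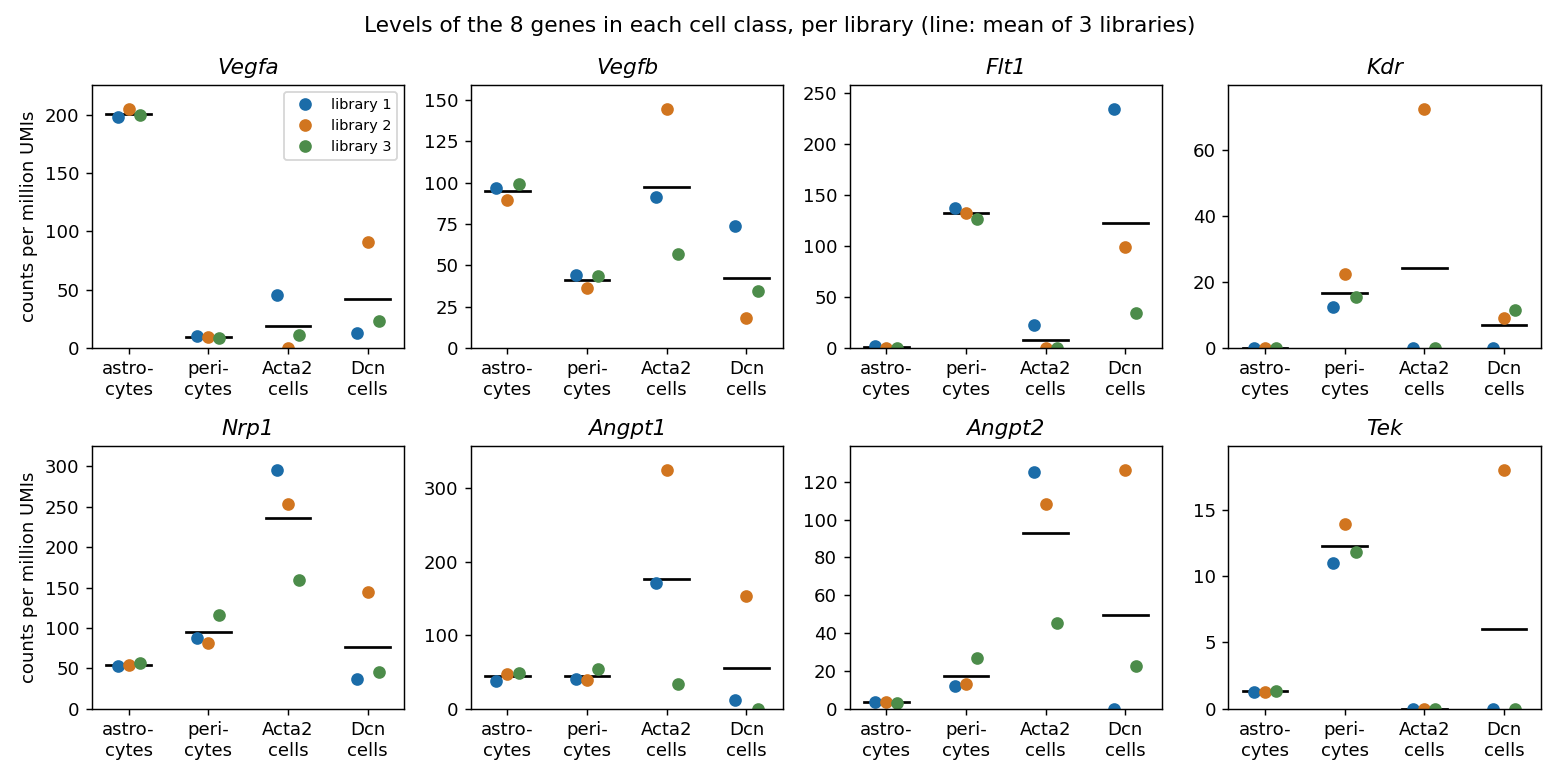
CPM of the 8 members (one panel each) in astrocytes, pericytes, Acta2 cells and Dcn cells, one point per library with the mean of the 3 libraries. Vegfa is highest in astrocytes and Flt1 in pericytes and Dcn cells, and the points of the 2 small classes are far apart.

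Vegfa encodes the main angiogenic and permeability factor of the family. In astrocytes it stood at 198, 205 and 199.9 CPM in libraries 1, 2 and 3, and in pericytes at 10.3, 8.99 and 8.82 CPM. The astrocyte values lay close together and 19.2-fold to 22.8-fold above the pericytes of the same library, a mean of 201 ± 3.77 CPM (SD, n = 3 libraries, as for all means below) against 9.37 ± 0.812. The fitted log2 fold of pericytes over astrocytes was -4.69 ± 0.11 (SE, adjusted p = 2.62e-50). Of astrocytes 75.2% had a Vegfa UMI, of pericytes 4.57%, and in 42.1% and 2.53% once each cell was thinned to 3000 UMIs (8214 astrocytes and 2054 pericytes were deep enough). The mean pericyte level of Vegfa was 0.0467 of that of astrocytes. Of the astrocyte markers that set no class limit, Aldoc stood at 23.99 CPM in pericytes against 1936 in astrocytes and Gja1 at 14.6 against 1580, while Atp1b2, the gene of the antigen used for sorting, stood at 675 against 817. Whether Vegfa in pericytes came from astrocyte RNA in the droplets was not tested.

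In Acta2 cells, Vegfa reached 45.6, 0 and 11.4 CPM, from 4, 0 and 1 UMIs, and in Dcn cells 12.3, 90.3 and 22.8 CPM, from 1, 10 and 2 UMIs. The 4 UMIs of Acta2 cells in library 1 all lay in 1 of its 10 cells. Of these 10 cells, 9 held at most 5 UMIs of Slc1a2 and Slc1a3. Whether the cell with the Vegfa UMIs was the other one, or held astrocyte RNA, was not tested. Both small classes were below astrocytes, by a log2 fold of -3.36 ± 0.50 (adjusted p = 5.08e-08) and -2.51 ± 0.36 (adjusted p = 1.17e-08). Dcn cells passed the test above pericytes as well (log2 fold 2.18 ± 0.63, adjusted p = 0.0228), but library 2 decided this: without it the log2 fold was 0.76 and the call was lost. It was also lost with the genes and mitochondrial filter, in thinned cells and among hashtag singlets. Dcn cells had no cap on Slc1a2 and Slc1a3, and their astrocyte list averaged 2037 CPM against 905 in pericytes. The part of astrocyte RNA in their Vegfa was not tested. By mean CPM the order was astrocytes, Dcn cells, Acta2 cells and pericytes. Dcn and Acta2 cells (-0.85 ± 0.89, adjusted p = 0.734) and Acta2 cells and pericytes (1.33 ± 0.92, adjusted p = 0.463) were not told apart.

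Vegfb, whose product binds VEGFR1 but not VEGFR2, followed Vegfa with a shallower gradient. Astrocytes held 97.0, 89.3 and 98.98 CPM and pericytes 44.2, 36.0 and 43.2 CPM, with no overlap between the classes. On the fitted scale pericytes were lower by 1.48 ± 0.08 (log2 fold -1.48, adjusted p = 4.14e-27), and the mean CPM of astrocytes was 2.31-fold that of pericytes. The mean pericyte level of Vegfb was 0.433 of that of astrocytes. A Vegfb UMI was seen in 53.2% of astrocytes and 17.1% of pericytes, or 23.9% and 11.5% of thinned cells.

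Acta2 cells had 91.1, 145 and 56.8 CPM of Vegfb, which spans the astrocyte range, and Dcn cells 74.0, 18.1 and 34.2 CPM. Acta2 cells could not be told from astrocytes (log2 fold -0.54 ± 0.38, adjusted p = 0.306) and Dcn cells could not be told from pericytes (-0.17 ± 0.50, adjusted p = 0.933), whereas Dcn cells were below astrocytes (-1.66 ± 0.41, adjusted p = 0.000804). The 2 VEGF ligands thus shared the step from astrocytes to pericytes and Dcn cells and differed in Acta2 cells, where Vegfa passed the test against astrocytes and Vegfb did not; that difference between the genes was not itself tested.

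Angpt1 encodes the agonist of Tie2 that is usually credited to mural cells. Here astrocytes held 37.2, 47.4 and 48.2 CPM and pericytes 41.0, 38.9 and 54.3 CPM, and the 2 ranges overlapped. Means were 44.3 ± 6.12 and 44.7 ± 8.35 CPM. The fit called Angpt1 lower in pericytes (log2 fold -0.26 ± 0.11, adjusted p = 0.0266), but with library sizes alone as the scale the log2 fold was 0.02 ± 0.11 (adjusted p = 0.871), and without library 2 it was -0.11 (adjusted p = 0.368). No direction between astrocytes and pericytes can be read from these values. Astrocytes with an Angpt1 UMI made up 19.5% of the class and pericytes 12.3%, shares that closed to 9.28% and 9.10% at equal depth.

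The highest Angpt1 values lay in Acta2 cells, at 171, 325 and 34.1 CPM from 15, 9 and 3 UMIs, and 11 of the 22 cells had at least 1 UMI. They passed the test above pericytes (log2 fold 1.54 ± 0.45, adjusted p = 0.0156) and above astrocytes (1.28 ± 0.44, adjusted p = 0.0194), although the Acta2 cells of library 3 lay below the pericytes of that library. Both calls were lost without library 1 (log2 folds 1.13 and 0.81), without library 2 (1.13 and 1.02), with DESeq2 (1.61 and 1.12, adjusted p = 0.247 and 0.317) and among hashtag singlets (0.55 and 0.10, adjusted p = 0.722 and 0.928). Dcn cells ranged from 0 to 154 CPM, with the 154 in library 2, and did not pass against any other class. By mean CPM Angpt1 ran from Acta2 cells through Dcn cells and pericytes to astrocytes, and the neighbours Acta2 and Dcn cells (1.15 ± 0.59, adjusted p = 0.337) and Dcn cells and pericytes (0.39 ± 0.49, adjusted p = 0.824) were not told apart.

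Angpt2 encodes the ligand that can displace angiopoietin 1 from Tie2. Astrocytes held 3.43, 3.76 and 2.77 CPM, pericytes 12.2, 13.1 and 26.7 CPM, and every pericyte sum lay above every astrocyte sum. The log2 fold of pericytes over astrocytes was 2.07 ± 0.22 (adjusted p = 2.17e-13). Library 3 held 97 of the 194 pericyte UMIs of Angpt2, and leaving out each library in turn gave log2 folds of 1.54 to 2.32, all past the threshold. In Acta2 cells the level was higher again, at 125, 108 and 45.4 CPM from 11, 3 and 4 UMIs, with 10 of 22 cells positive. The Acta2 cells passed the test above pericytes (log2 fold 2.33 ± 0.59, adjusted p = 0.0037) and above astrocytes (4.40 ± 0.68, adjusted p = 1.51e-07). Without library 1 the call against pericytes was lost (log2 fold 1.58, adjusted p = 0.347).

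In Dcn cells Angpt2 was uneven, at 0, 126 and 22.8 CPM, and it passed the test above astrocytes (log2 fold 3.68 ± 0.69, adjusted p = 8.20e-06) but not above pericytes (1.61 ± 0.59, adjusted p = 0.126). Without library 2 the call against astrocytes was lost (1.49, adjusted p = 0.556). The order was Acta2 cells, Dcn cells, pericytes and astrocytes, with the first and second (0.72 ± 0.67, adjusted p = 0.666) not told apart. Because astrocytes were so numerous, 54.5% of all Angpt2 UMIs still lay in them, with 34.8% in pericytes.

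Flt1 separated pericytes from astrocytes on 1500 UMIs against 76. VEGFR1, its product, binds both VEGF-A and VEGF-B, and a soluble form acts as a decoy. Pericytes held 137, 132 and 126 CPM, from 585, 456 and 459 UMIs, and 36.9% of them had at least 1 Flt1 UMI (26.3% at equal depth). Astrocytes held 2.00, 0.0368 and 0.0720 CPM, and the value of library 1 came almost wholly from 1 barcode with 65 of the 76 Flt1 UMIs in the class. Only 9 of 8755 astrocytes had a Flt1 UMI. Without the 2 astrocyte barcodes that held 5 or more UMIs over Cldn5, Pecam1, Cdh5, Ly6c1 and Egfl7, 11 Flt1 UMIs and 0 Kdr UMIs remained in the class. The fitted log2 fold was 7.05 ± 0.18 (adjusted p = 1.74e-48), and 10.56 without library 1, which holds that barcode.

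Dcn cells had 234, 99.4 and 34.2 CPM of Flt1, from 19, 11 and 3 UMIs, which bracket the pericytes (log2 fold -0.26 ± 0.41, adjusted p = 0.875). Acta2 cells had 22.8, 0 and 0 CPM, from 2 UMIs in all, and their pooled level was 0.0744 of that of pericytes (exact 95% counting interval 0.0090 to 0.269). The test placed them below pericytes (log2 fold -3.84 ± 0.98, adjusted p = 0.00421) and did not separate them from Dcn cells (-3.58 ± 1.21, adjusted p = 0.0626) or from astrocytes (3.21 ± 2.29, adjusted p = 0.314). Of the receptor kinases, Flt1 alone passed a test between Acta2 cells and pericytes, where Acta2 cells held 2 Kdr UMIs and 0 Tek UMIs. Without library as a block 0 members were called lower in that comparison, so the Flt1 call was lost.

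Kdr, which encodes the main signalling receptor for VEGF-A, was found at low level in pericytes, at 12.4, 22.3 and 15.4 CPM, with a UMI in 147 of 2211 cells. In astrocytes it was found in 1 barcode, with 3 UMIs, and none of the 8609 astrocytes without an endothelial UMI had a Kdr UMI, a count of 0 under which the share of such cells with a detected UMI, not of cells expressing Kdr, could still be as high as 0.0348%. The pooled ratio of pericytes to astrocytes was 499 (95% counting interval 168 to 2443), and the fit gave a log2 fold of 8.15 ± 0.45 (adjusted p = 6.74e-28). Acta2 and Dcn cells held 2 Kdr UMIs each, and although both passed the test against astrocytes (adjusted p = 0.00692 and 0.0104), the ratios have counting intervals of 25.0 to 2614 and 18.2 to 1902. Without library 2, where both Acta2-cell UMIs lay, the fitted log2 fold of Acta2 cells over astrocytes was -2.16, and the call of Dcn cells was lost without library 2 or 3 (6.21 and 5.91). Against pericytes neither passed, with log2 folds of -0.69 ± 1.19 and -1.38 ± 1.09.

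Tek, the Tie2 gene, was likewise a low pericyte transcript, at 11.004, 13.9 and 11.8 CPM against 1.26, 1.25 and 1.37 CPM in astrocytes. The log2 fold was 2.94 ± 0.27 (adjusted p = 3.26e-16), and the pericyte level exceeded that of astrocytes by 8.66-fold to 11.1-fold within libraries. Tek had a UMI in 4.93% of pericytes and 1.14% of astrocytes. Dcn cells held 2 Tek UMIs, and none was found among 203502 UMIs of Acta2 cells, where 3 counts over the class would correspond to 14.7 CPM, a level above that of the pericytes. Whether Acta2 cells have less Tek than pericytes was thus not detectable at this depth.

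Nrp1, the co-receptor that VEGF-A shares with class 3 semaphorins, was present in every class. Astrocytes held 52.7, 54.5 and 56.5 CPM, pericytes 88.0, 80.9 and 116 CPM, and Acta2 cells 296, 253 and 159 CPM, with the 3 classes in the same order in each library. A Nrp1 UMI was found in 20 of 22 Acta2 cells, 29.9% of pericytes and 34.2% of astrocytes, and in 20.9% of pericytes against 13.7% of astrocytes at equal depth. Pericytes passed the test above astrocytes (log2 fold 0.51 ± 0.08, adjusted p = 1.88e-08), yet not with DESeq2 (0.24 ± 0.31, adjusted p = 0.500), with stricter class limits (0.16 ± 0.08, adjusted p = 0.0640) or among hashtag singlets (0.12 ± 0.10, adjusted p = 0.276).

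Acta2 cells were above pericytes (log2 fold 1.22 ± 0.31, adjusted p = 0.0034; 0.84 and not called without library 1), above astrocytes (1.74 ± 0.32, adjusted p = 7.10e-06) and above Dcn cells (1.54 ± 0.45, adjusted p = 0.021) in Nrp1. Dcn cells, at 37.0, 145 and 45.5 CPM, could not be told from pericytes (-0.32 ± 0.37, adjusted p = 0.808) or astrocytes (0.20 ± 0.39, adjusted p = 0.754). Nrp1 was the 1 member that passed between Acta2 and Dcn cells, where 5.95% of all genes did (2.87% higher and 3.08% lower in Acta2 cells), and the call was lost without library 1 (0.92) or library 3 (1.43).

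**Figure D2:**
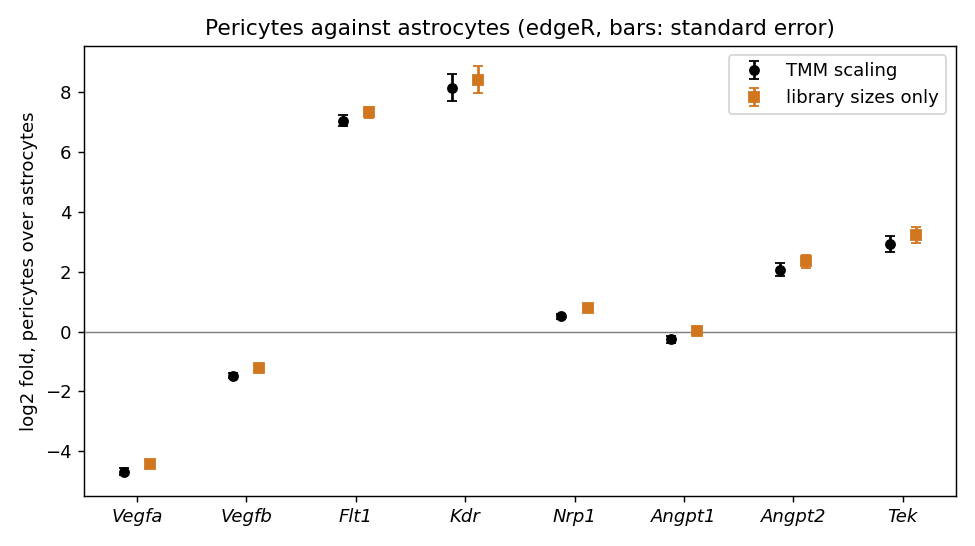
Fitted log2 fold of pericytes over astrocytes for each member, with bars for the standard error, scaled by TMM (black) and by library sizes alone (orange). The ligand genes Vegfa and Vegfb lie below 0, the receptor genes and the ligand gene Angpt2 above it, and Angpt1 moves from -0.26 to 0.02 with the scaling.

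Counted by comparison, 5 members passed between Acta2 cells and astrocytes (Vegfa lower, and Kdr, Nrp1, Angpt1 and Angpt2 higher in Acta2 cells), where 27.8% of genes were called, 11.9% higher and 16.0% lower. Between Dcn cells and astrocytes 5 passed (Vegfa and Vegfb lower, and Flt1, Kdr and Angpt2 higher in Dcn cells) against 30.7% of genes, 14.2% higher and 16.5% lower. Acta2 cells differed from pericytes in 4 members (Flt1 lower, and Nrp1, Angpt1 and Angpt2 higher) against 9.00% of genes, 4.85% higher and 4.15% lower. Dcn cells differed from pericytes in Vegfa alone, which was higher, against 4.67% of genes, 3.45% higher and 1.22% lower. Of the 4 members called between Acta2 cells and pericytes, 1, Flt1, passed without library 1. On simulated counts with the same depths, 48% of genes with a log2 fold of 2 were recovered between Acta2 cells and pericytes and 60% between Dcn cells and pericytes, so members that did not pass there are not shown to be equal. Hashtag doublets made up a larger share of Acta2 cells than of pericytes, and the astrocyte list lay at 613 to 4738 CPM in Acta2 cells and 868 to 957 in pericytes, whose definition caps Slc1a2 and Slc1a3. With Acta2 cells also held to at most 5 UMIs of Slc1a2 and Slc1a3 (21 cells), 4 members were called against pericytes, 3 higher and 1 lower. The median log2 fold over the members was 0.21 with that limit and 1.08 without it. Among hashtag singlets (9 Acta2 cells) 2 were called. How much of each level came from doublets or astrocyte RNA was not tested.

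The receptors were also followed to barcodes with endothelial transcripts. Over the 5 genes Cldn5, Pecam1, Cdh5, Ly6c1 and Egfl7, 9 barcodes held 5 or more UMIs, and 7 of them held Cldn5. Among the 9, 2 met the astrocyte definition, 1 that of pericytes and 1 that of Dcn cells. In the shares of this paragraph they are counted apart from those classes. These 9 barcodes, 0.0664% of all, carried 15.6% of the Flt1 UMIs, 11.1% of the Kdr UMIs and 7.75% of the Tek UMIs, at 3345, 273 and 240.5 CPM. Pericytes held most of the UMIs for Flt1 (75.6%) and Kdr (81.3%) and the largest share for Tek (44.7%), although only 10.6% of all UMIs lay in them. Vegfa was the reverse, with 95.2% of its UMIs in astrocytes, where 85.0% of all UMIs lay, and 0.556% in pericytes.

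**Figure D3:**
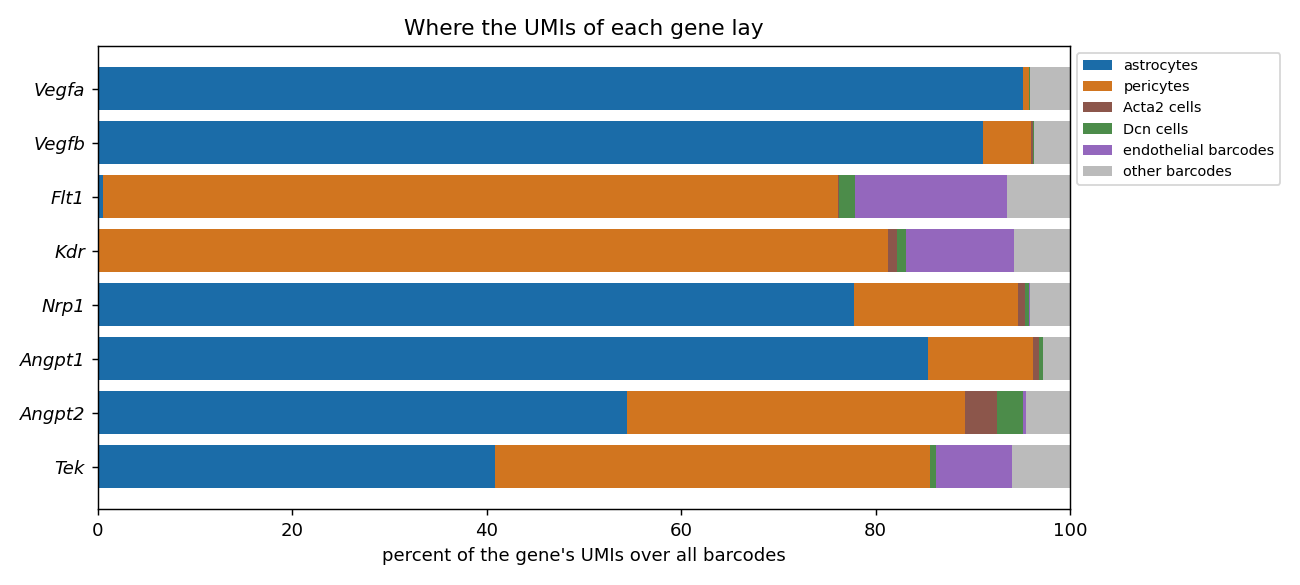
Share of each member's UMIs, in percent, that lay in astrocytes, pericytes, Acta2 cells, Dcn cells, the 9 endothelial barcodes and the remaining barcodes. Most UMIs of Flt1 and Kdr lay in pericytes and most of those of Vegfa, Vegfb, Nrp1 and Angpt1 in astrocytes.

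Endothelial marker genes in pericyte droplets were measured beside these values. The 8 endothelial markers summed to 648 to 704 CPM in pericytes, and Emcn (372 CPM) and Esam (267 CPM) made up most of it. Emcn had a UMI in 74.3% of pericytes and Esam in 67.8%, against 0.317% for Cldn5. Whether the Emcn and Esam UMIs came from endothelial RNA was not tested, so the sum is not a measure of such RNA. Slco1a4 lay at 29.2 CPM, with a UMI in 9.45% of pericytes against 0.0800% of astrocytes. The defining genes Cldn5, Cdh5, Ly6c1, Pecam1 and Egfl7 lay at 5.55, 0.184, 0.831, 1.35 and 6.26 CPM. In the 2133 pericytes with no UMI of the 5 gate genes, Flt1 stood at 131 ± 9.55 CPM, with a UMI in 36.8% of cells, Kdr at 16.4 ± 5.82 CPM and Tek at 11.7 ± 2.63 CPM. Endothelial RNA in pericyte droplets that held none of these UMIs was not tested.

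Among single cells of a class, some members left more cells without a UMI than a Poisson draw would, and others did not, such as Vegfa in pericytes (2110 cells against 2107) and Tek in astrocytes (8655 against 8638). A Poisson draw with each cell's own depth would leave 5685 astrocytes without an Angpt1 UMI, and 7044 had none. The top 1% of astrocytes held 20.2% of the Angpt1 UMIs, against 5.80% for Vegfa and 6.25% for Vegfb. In pericytes, 1940 cells had no Angpt1 UMI where the Poisson draw gave 1764, and 1396 had no Flt1 UMI where it gave 1149. The pooled level of Vegfa in astrocytes went from 181 to 206 CPM between the shallowest and the deepest of 4 equal bins of cells.

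To see which genes went with a member inside a class, cells thinned to 3000 UMIs were divided by the presence of a UMI of that member, summed per library and compared with edgeR, leaving the dividing gene out. These 7 comparisons were added after the data had been examined, and a cell without a UMI may still express the gene. The sums pooled the mice and behavioural groups of a library, with hashtag doublets kept and no term for the mouse.

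Pericytes with an Angpt1 UMI (71, 50 and 66 cells) differed from those without (719, 557 and 591 cells) in 85 of 9190 genes, 0.925% of those tested, 0.762% higher and 0.163% lower. Angpt2 and Nrp1 were 2 of them. Angpt2 stood at 28.2, 46.7 and 96.0 CPM in cells with an Angpt1 UMI and at 6.03, 6.58 and 20.3 CPM in cells without, a log2 fold of 2.36 ± 0.42 (adjusted p = 0.000105). The difference was seen in 3 of 3 libraries and rested on 6, 7 and 19 UMIs. Nrp1 stood at 160, 160.0 and 288 CPM against 76.5, 80.8 and 99.8 CPM (1.24 ± 0.18, adjusted p = 8.09e-07). Without thinning, 50 pericytes carried both Angpt1 and Angpt2, of 271 and 133 with either.

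The other tested members did not pass in the same comparison. Flt1 had a log2 fold of 0.40 ± 0.18 (adjusted p = 0.490), Vegfb 0.55 ± 0.30 (0.641), Kdr 0.61 ± 0.51 (0.869) and Tek -1.22 ± 0.81 (0.773). Angpt2 and Nrp1 were thus each higher in pericytes with an Angpt1 UMI, and the same was not shown for the tyrosine kinase receptors. Whether the pairing lay between cells of the same mouse or between mice was not tested. Without library 3 the count of genes called fell to 44, with Angpt2 (2.48) and Nrp1 (1.01) still among them.

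**Figure D4:**
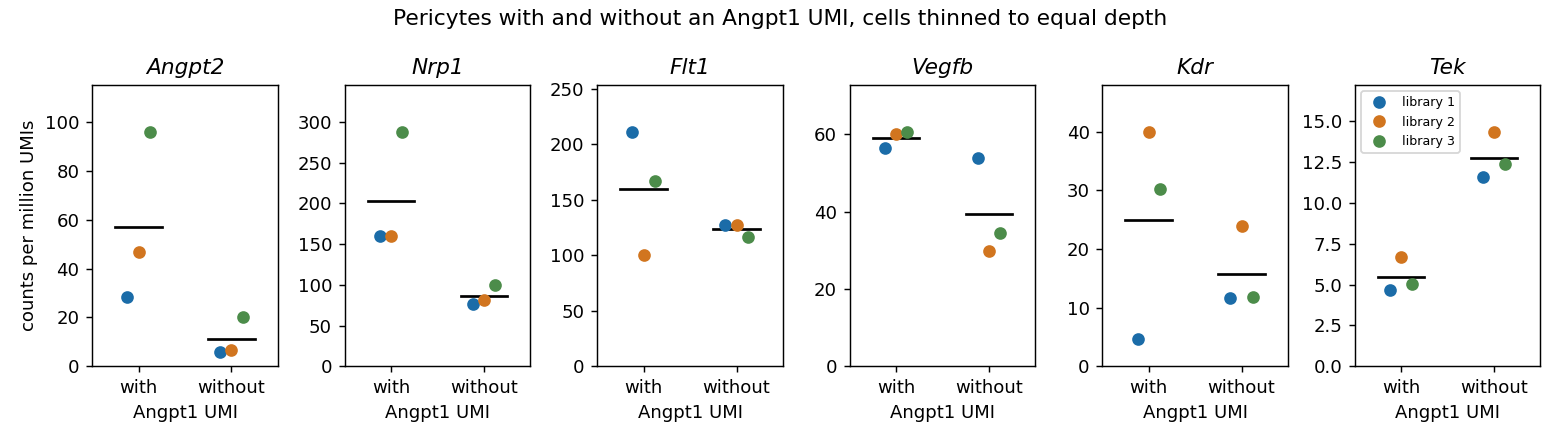
CPM of 6 members in pericytes with and without an Angpt1 UMI, all thinned to 3000 UMIs, one point per library with the mean as a line. Angpt2 and Nrp1 lie higher in cells with an Angpt1 UMI in 3 of 3 libraries, and the other 4 panels did not pass the test.

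The same pericytes were higher in Dgkb, a diacylglycerol kinase (log2 fold 1.52 ± 0.12), Crip1 (1.17 ± 0.12), Ctnna3 (1.88 ± 0.24), Lmod1, a leiomodin of smooth muscle (1.92 ± 0.29), Timp3, a metalloproteinase inhibitor (0.88 ± 0.12), and Apoe (1.19 ± 0.12). They were lower in Spp1, osteopontin (-0.68 ± 0.11), Uchl1 (-0.87 ± 0.15) and the pericyte marker Atp13a5 (-0.39 ± 0.08). The pericyte list summed to 23965 to 27319 CPM in cells with an Angpt1 UMI and 29383 to 29955 in cells without. The smooth muscle list was level, at 1418 to 1587 against 1448 to 1524 CPM. In pericytes Myl9 (1373 CPM, a UMI in 96.4% of cells) made up most of that list, so its sum says little of the other genes. Acta2 itself had 13 UMIs in the smaller group and 9 in the larger. Without any pericyte that held an Acta2 UMI (69, 49 and 61 cells with Angpt1), Angpt2 and Nrp1 still passed, at 2.03 ± 0.46 (adjusted p = 0.00474) and 1.26 ± 0.18 (adjusted p = 1.37e-07), and 62 genes were called.

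Divided by Nrp1, pericytes gave the same pairing from the other side, which is not separate evidence. Angpt1 stood at 72.8, 67.2 and 114 CPM in the 151, 124 and 155 pericytes with a Nrp1 UMI and at 30.3, 31.7 and 34.5 CPM in the rest (log2 fold 1.40 ± 0.20, adjusted p = 4.54e-05), among 25 of 9285 genes called (0.269%, with 0.248% higher and 0.0215% lower). Dgkb and Ctnna3 led that list too. Angpt2 missed the threshold there (1.17 ± 0.34, adjusted p = 0.199). Pericytes divided by Flt1 differed in 7 of 9357 genes (0.0748%, with 0.0321% higher and 0.0427% lower), and 0 members were called. At an unadjusted p below 0.05 there were 594 of the 9357 genes, 4 of them members. Kdr (0.78), Angpt1 (0.50) and Angpt2 (0.71) were higher and Nrp1 (-0.32) lower in cells with a Flt1 UMI. The endothelial gene Cldn5 had 19 UMIs in cells with a Flt1 UMI and 0 in cells without. The part of endothelial RNA in these differences was not tested.

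Astrocytes with an Angpt1 UMI (277, 231 and 254 cells) differed from the rest in 335 of 11952 genes (2.80%, with 1.42% higher and 1.38% lower), and no other member was among them (0 at an unadjusted p below 0.05 as well). Without library 3 the count was 101. The strongest was Gria1, which encodes an AMPA receptor subunit, at 294 to 482 CPM with and 162 to 177 CPM without an Angpt1 UMI (log2 fold 1.21 ± 0.08). Also higher were Erbb4, the neuregulin receptor (0.75 ± 0.06), Pdgfd, a platelet-derived growth factor (1.11 ± 0.10), Agt, angiotensinogen (0.74 ± 0.07), and the homeobox gene Nkx6-2 (0.99 ± 0.12). Adam23 (-0.74 ± 0.10), Pde10a (-0.69 ± 0.11) and the metallothionein Mt1 (-0.31 ± 0.05) were lower. Angpt2 in these astrocytes had a log2 fold of 0.25 ± 0.56 (adjusted p = 0.923), so the Angpt1 and Angpt2 pairing of pericytes was not found in them; the difference between the 2 classes was not tested.

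Astrocytes with a Vegfa UMI differed from those without in 227 of 12178 genes (1.86%), 56 higher (0.460%) and 171 lower (1.40%), and 89 in all without library 3. Among the lower genes, Top2a had 2 UMIs in cells with Vegfa and 168 in cells without, and Mki67 had 1 and 100, while Tmsb4x stood at 74.4 to 99.2 CPM against 143 to 180 (log2 fold -0.89 ± 0.06). Higher were Luzp2 (0.19 ± 0.02), the glutamate receptor gene Grm3 (0.19 ± 0.03), the thyroid hormone transporter gene Slco1c1 (0.20 ± 0.03) and Igfbp2 (0.38 ± 0.07). No other member was called or had an unadjusted p below 0.05, with log2 folds between -0.25 for Angpt2 and 0.01 for Nrp1.

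Astrocytes with a Vegfb UMI differed in 3181 of 12137 genes (26.2%), higher in Mt1 (0.53 ± 0.03), Mt3 (0.51 ± 0.03), both metallothioneins, Cst3, cystatin C (0.45 ± 0.03), and Apoe (0.41 ± 0.03) and lower in Trpm3 (-0.42 ± 0.03) and Rora (-0.43 ± 0.03). No member passed or had an unadjusted p below 0.05, the closest being Nrp1 (-0.19 ± 0.10, adjusted p = 0.162). With Nrp1 as the divider, 207 of 12047 genes were called (1.72%, with 0.706% higher and 1.01% lower), with Kcnd2, Erbb4 and Gria1 higher and Cst3 and Mt3 lower, and again 0 members, of which none had an unadjusted p below 0.05.

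Astrocytes positive for Igfbp2, the IGF-binding protein gene the study followed, held more of both VEGF ligands. Vegfa stood at 238 ± 2.49 CPM in 2433 Igfbp2-positive astrocytes and 182 ± 6.73 CPM in the other 6322, and Vegfb at 114 ± 2.60 against 85.9 ± 6.08 CPM, higher in 3 of 3 libraries for both. These differences and those of the next sentences were not tested. Astrocytes positive for the adrenoreceptor gene Adra1a held 51.4 ± 5.47 CPM of Angpt1 against 39.3 ± 7.40, and 59.7 ± 4.83 CPM of Nrp1 against 50.8 ± 2.92, also in 3 of 3 libraries, with Vegfb lower in all 3 (87.1 against 101 CPM). In Adrb1-positive astrocytes Vegfa was 211 ± 4.47 against 198 ± 4.48 CPM, and in Fos-positive ones 212 ± 5.27 against 200.3 ± 3.66 CPM. Positive cells were deeper in each case, with medians of 11438.5 to 12211 UMIs against 9101 to 9809. From the shallowest to the deepest of 4 equal bins of astrocytes, Vegfb fell from 108 to 85.6 CPM. Over the same bins Vegfa rose from 181 to 206, Angpt1 from 37.5 to 48.3 and Nrp1 from 48.4 to 56.6 CPM. The part of depth in these differences was not tested.

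Patterns like those of the members were looked for over the 12 class and library sums. Vegfa was most like Rab30 (Pearson's r = 0.987), Zfp521 and Mras, Vegfb like Ppp2r5a (0.941), Tox2 and Fgf1, and Flt1 like Adgrf5 (0.985), Gm13470 and Rhod. Kdr was most like Lmo2 (0.992), Acsl5 and Lsm2, Tek like Tdgf1 (0.994), Cyp39a1 and Akr1b8, and Nrp1 like Gm2000 (0.970), Cav1 and Slit3. Angpt1 was nearest to Mpnd (0.965), Fgf2 and Frmd4b, and Angpt2 to Rgs16 (0.983), Capn1 and Rad9a. The 12 points share 3 libraries and differ in depth, and the sums of the 2 small classes carry few UMIs, so these are descriptions.

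The other genes of the pathway went in both directions between pericytes and astrocytes. Of 25 further ligands, receptors and co-receptors, 13 were tested, and 6 were higher and 5 lower in pericytes (median log2 fold -0.01). With DESeq2 4 were higher and 5 lower. Over all genes tested, edgeR called 38.2% higher and 41.6% lower, so these counts are not a result about the list. Tie1, the partner receptor of Tie2 (6.47 ± 0.54), the second neuropilin Nrp2 (3.80 ± 0.22) and the integrin subunit Itgb1 (3.22 ± 0.30) were the furthest up. Down furthest were the plexins Plxna4 (-6.48 ± 0.28) and Plxnd1 (-1.90 ± 0.21), and Svep1 (-4.23 ± 0.46). Of the other VEGF-type ligands, Pgf was higher (0.93 ± 0.14) and Vegfd lower (-1.54 ± 0.27) in pericytes.

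Genes of oxygen sensing and the hypoxia response, a list of the HIF factors, their regulators and HIF targets such as Slc2a1, were also divided. Of 18 listed, 16 were tested, with 8 higher and 5 lower in pericytes (median log2 fold 0.22). With library sizes alone 10 were higher and 4 lower, and with DESeq2 6 higher and 4 lower. Here too the main counts stand beside 38.2% of all genes higher and 41.6% lower, and are not a result about the list. Epas1, which encodes HIF-2α (2.48 ± 0.19), Adm, adrenomedullin (7.41 ± 0.26), Ndrg1 (4.77 ± 0.43) and Ankrd37 (2.90 ± 0.27) were higher in pericytes. Hif3a (-5.27 ± 0.13), the glucose transporter gene Slc2a1 (-1.81 ± 0.10) and Vhl (-1.21 ± 0.13) were lower, the same direction as Vegfa. Hif1a itself did not pass (0.14 ± 0.07, adjusted p = 0.0595).

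For the behavioural groups, hashtag singlets were summed per mouse: 1538 astrocytes and 895 pericytes of 16 mice, 4 per group. Of 8134 filtered astrocytes 2254 were singlets and 4825 negative, with a median of 9 hashtag UMIs. Of 2191 filtered pericytes 1387 were singlets and 138 negative, with a median of 26. Singlets whose hashtag belonged to no listed mouse were left out, and the mouse assignment rests on these low hashtag counts. CPM of mice are TMM-scaled. Vegfa, Vegfb, Nrp1 and Angpt1 could be tested in astrocytes (9675 genes), and Vegfb, Flt1, Nrp1 and Angpt1 in pericytes (6133 genes). In FC against NoFC, NoFR against NoFC, FR against NoFR and FR against FC, edgeR called 0 members in either class, and DESeq2 called 0. At an unadjusted p below 0.05 there was 1 member in astrocytes (Angpt1 in FR against NoFR) and 1 in pericytes (Angpt1 in FC against NoFC). Over all genes, edgeR called 0 genes (0%) in each of the 4 astrocyte contrasts, with 244 to 590 genes at an unadjusted p below 0.05, and in pericytes 66 (1.08%, with 0.571% higher and 0.505% lower) in NoFR against NoFC, 5 (0.0815%) in FR against NoFR and 0 (0%) in the other two.

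Astrocyte Vegfa lay at 152 to 208 CPM in NoFC mice, 194 to 236 in FC mice, 163 to 209 in NoFR mice and 181 to 224 in FR mice. The groups overlapped, and FC exceeded NoFC by a log2 fold of 0.20 ± 0.13 (adjusted p = 0.968; exact permutation p = 0.0857, adjusted over 56 comparisons 0.6). Angpt1 in astrocytes was 27.0 to 54.8 CPM in NoFC mice, 30.5 to 46.2 in FC mice, 17.3 to 43.4 in NoFR mice and 32.0 to 76.1 in FR mice. The highest group was FR, and against NoFR its log2 fold was 0.73 ± 0.28 with an unadjusted p of 0.0168 and an adjusted p of 1.00 in edgeR. With MULTIseqDemux hashtag calls the direction turned, to a log2 fold of -0.34. Those calls left NoFR mouse 3 (175 astrocytes) alone against FR mice 3 and 4 (27 and 20 astrocytes). The other mice of these groups had fewer than 10 astrocytes, so that fit did not compare the same mice.

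**Figure D5:**
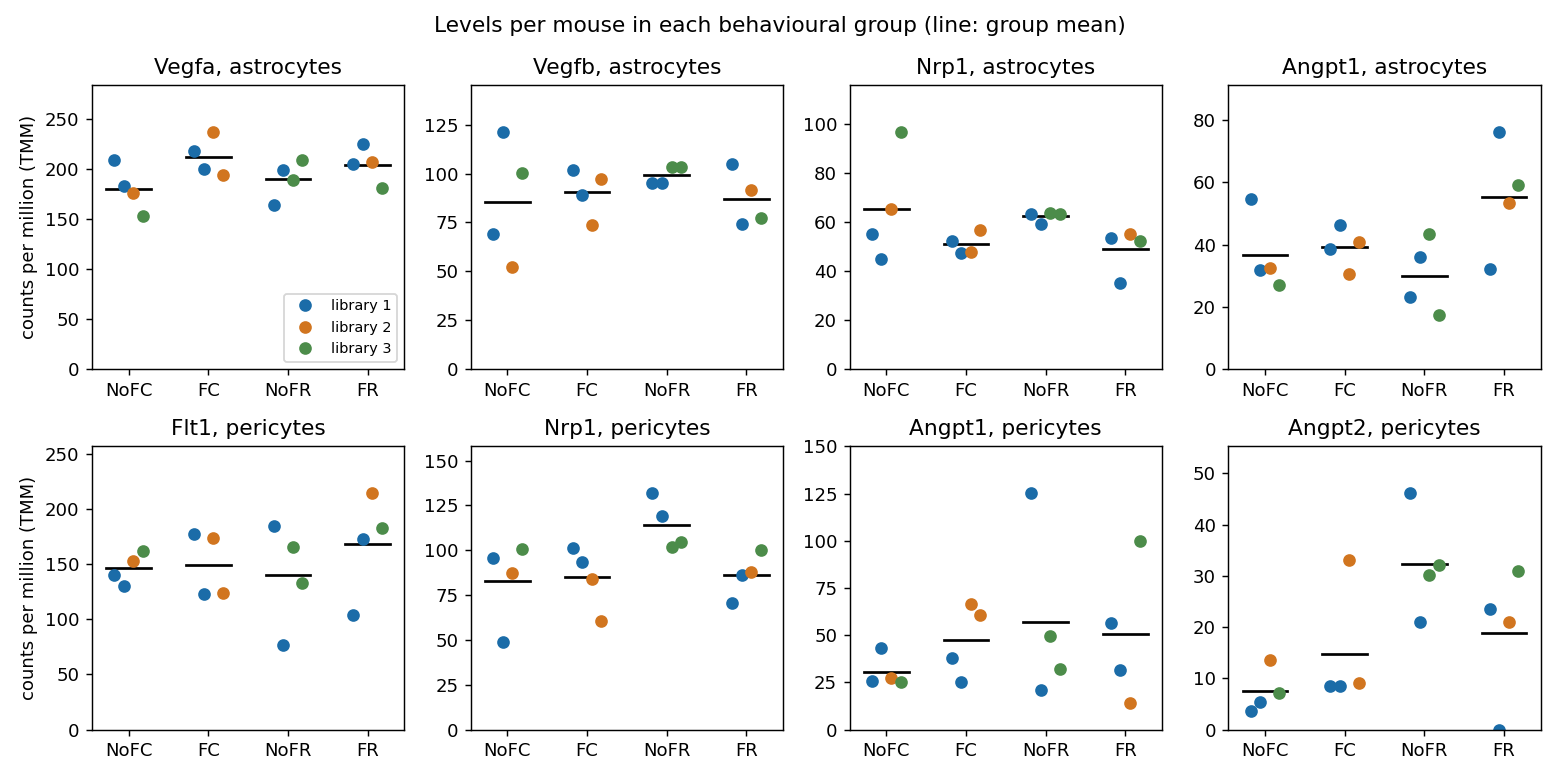
TMM-scaled CPM of Vegfa, Vegfb, Nrp1 and Angpt1 in astrocytes and of Flt1, Nrp1, Angpt1 and Angpt2 in pericytes of each mouse, in the groups NoFC, FC, NoFR and FR, 4 mice per group, coloured by library, with the group mean as a line. The groups overlap in most panels, and the 4 NoFR mice lie above the 4 NoFC mice for Nrp1 and Angpt2 in pericytes. For Nrp1 the margin in library 3 is small.

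Nrp1 was the tested member whose mice did not overlap between groups. In astrocytes the 4 FR mice lay at 35.0 to 55.1 CPM and the 4 NoFR mice at 59.2 to 63.3, as did 2.33% of all genes. In pericytes the NoFR mice, at 102 to 132 CPM, lay above NoFC mice at 48.9 to 101 (5.07% of genes) and above FR mice at 70.7 to 99.97 (3.20% of genes). The margin was small in library 3, where NoFR mice held 102 and 104 CPM (37 and 26 UMIs). The NoFC mouse there held 101 (28 UMIs) and the FR mouse 99.97 (29 UMIs). In library 1 the NoFR mice held 119 to 132 CPM, NoFC mice 48.9 to 95.6 and FR mice 70.7 to 86.3. Each of the 3 contrasts without overlap gave an exact permutation p of 0.0286, the smallest that 4 against 4 mice allow, and an adjusted p of 0.4 over 56 comparisons. The permutation did not use library. By edgeR, which keeps library as a term, the log2 folds were -0.25 ± 0.18, 0.31 ± 0.24 and -0.30 ± 0.25, none called. With MULTIseqDemux calls the first was 0.0922, from NoFR mouse 3 alone against FR mice 3 and 4.

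Angpt2 in pericytes was below the filter on low counts and was tested on its own. NoFR mice held 46.2, 21.0, 30.3 and 32.1 CPM, from 7, 3, 11 and 8 UMIs, and NoFC mice 3.68, 5.44, 13.6 and 7.19 CPM, from 1, 1, 7 and 2 UMIs. All 4 NoFR mice lay above all 4 NoFC mice (exact permutation p = 0.0286, adjusted p = 0.4). Among the genes that passed the filter, 5.07% had no overlap between these groups, a share that does not cover genes below the filter. FC mice, at 8.43 to 33.2 CPM, and FR mice, at 0 to 31.03 CPM, overlapped with both groups. Within library 1 the 2 NoFR mice held 21.0 to 46.2 against 3.68 to 5.44 CPM, and within library 3 they held 30.3 to 32.1 against 7.19 in the 1 NoFC mouse. Without the filter edgeR gave a log2 fold of 2.04 ± 0.57 (adjusted p = 0.0682), which does not pass.

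Angpt1 in pericytes varied widely among mice, from 14.1 to 99.97 CPM in FR and 21.0 to 125 CPM in NoFR. FC against NoFC gave a log2 fold of 0.86 ± 0.42 (unadjusted p = 0.0458, adjusted p = 0.998 in edgeR). Flt1 in pericytes had means of 146 ± 13.8 CPM in NoFC mice, 149 ± 29.9 in FC mice, 140 ± 47.1 in NoFR mice and 168 ± 46.7 in FR mice (SD, n = 4 mice). On simulated counts of the same depth, FR against NoFR recovered 56% of genes with a log2 fold of 1 in astrocytes and 55% in pericytes, so changes of that size could be missed.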

How the data were processed

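Gene and hashtag counts were measured in 3 droplet libraries. The deposited values are raw UMI counts per gene and barcode, made by the authors with Cell Ranger (3.0 in the submitters' notes, 7.0.0 in the file headers) on mm10. Whether intronic reads were counted was not given in these sources. The members and lists were chosen with earlier results of these data known.

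Classes were set on all barcodes by the UMI limits in the report, with no doublet caller. UMIs were summed per class and library (12 sums, with library as a block, since each library holds all classes) or per mouse (library as covariate), and tested with edgeR 4.0.16 (quasi-likelihood, TMM, filterByExpr, Benjamini-Hochberg over all genes tested, threshold 0.05), in R 4.3.3. The standard error is the log2 fold over the root of F. DESeq2 1.42.0 was an alternative. Mice were assigned with HTODemux (Seurat 5.3.0, quantile 0.99) among barcodes with 100 or more genes whose mitochondrial share was below 6%, and hashtags under 1000 UMIs were dropped (7 of 10 used in library 2). Single members were also compared by exact 2-sided permutation (SciPy 1.17.1), which did not use library. Intervals are 95% and, like the limit of 3 counts behind a count of 0, cover counting error only. The edgeR step was tested on simulated data.

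Named were all members, the 3 pathway genes furthest in each direction and the 3 genes most like each member (Pearson's r of log2 CPM). Other pathway genes, and those beside cells with a member's UMI, were chosen after their values were seen. Alternatives changed scaling, filters, the block, class limits, depth, hashtag calls and single libraries or mice.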

Additional observations from a re-analysis of the deposited data

Results flagged for a closer look

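Among 32 groups of 4 mice, 3 held a mouse flagged as apart from the other 3 by Dixon's test at 95%, where chance gives about 1 in 20. Dixon's ratio is the gap over the range of the 4 mice. A small gap is thus flagged where the other 3 lie close together. In astrocytes, the lowest NoFR mouse had 59.2 CPM of Nrp1 (82 UMIs) and the others 63.0 to 63.3, and the lowest FR mouse had 35.0 CPM (17 UMIs) and the others 52.3 to 55.1. In pericytes, the highest NoFC mouse had 43.5 CPM of Angpt1 (8 UMIs) and the others 25.2 to 27.1. Both FR and NoFR mice enter the Nrp1 contrast in astrocytes, where leaving out each mouse in turn gave log2 folds of -0.38 to -0.15, none past the threshold.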

How the results depend on the processing

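Over all alternatives, 430 values kept their direction and side of the threshold, 42 lost their call and 5 reversed, and of the summary counts and shares 295 stayed within 1.5 times or 1 SD and 38 moved; no cause was tested beyond what each setting itself changes. Leaving out each library gave 7 to 8 members called between pericytes and astrocytes, 3 to 5 between Acta2 cells and astrocytes, 4 to 5 between Dcn cells and astrocytes, 1 to 4 between Acta2 cells and pericytes, and 0 to 2 both between Dcn cells and pericytes and between Acta2 and Dcn cells. Between Acta2 cells and pericytes 2 members were called without the replicate block (4 with library as a block), 2 in thinned cells and 2 among singlets. In thinned cells 3 were called between Dcn cells and astrocytes. Between Dcn cells and pericytes 0 were called with the genes and mitochondrial filter, in thinned cells and among singlets, and 2 without endothelial barcodes or with stricter limits. Between Acta2 and Dcn cells 2 were called with library sizes only, no low-count filter, the mitochondrial filter, no endothelial barcodes, low astrocyte transcripts or stricter limits, and 0 in thinned cells or with cells in every class they met.

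Angpt1 reversed to 0.0204 between pericytes and astrocytes with library sizes only. Kdr gave -2.16 to 9.92 between Acta2 cells and astrocytes on leaving out each library, and -0.12 between Dcn cells and astrocytes in thinned cells. With MULTIseqDemux calls, FR against NoFR in astrocytes reversed to 0.0922 for Nrp1 and -0.34 for Angpt1. That fit held NoFR mouse 3 alone against FR mice 3 and 4. Thinned, the mean share of cells with a UMI was 42.2% for Vegfa in astrocytes and 2.48% in pericytes, 26.2% for Flt1 in pericytes, 13.6% and 21.0% for Nrp1, and 9.40% and 9.09% for Angpt1.

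Leaving out each library, genes called by Angpt1 in astrocytes numbered 101 to 325, by Vegfa 89 to 183 (40 without the replicate block), by Angpt1 in pericytes 44 to 82 and by Nrp1 in pericytes 18 to 48; pericytes divided by Flt1 gave 7 genes with the block and 2 without. Over all genes, calls between Dcn cells and pericytes went from 570 to 129 with low astrocyte transcripts, 334 thinned and 291 among singlets, between Acta2 cells and pericytes from 1097 to 553 thinned, and between Acta2 and Dcn cells from 726 to 290 thinned. In the 4 mouse contrasts of astrocytes, 0 genes became 11 to 59 with no low-count filter, 7 to 35 with MULTIseqDemux (8 mice), at most 12 at quantile 0.95, 4 with no cell filter and 2 with DESeq2, and 52 and 32 with strict calls (7 mice), which could not be fitted for contrasts with NoFC. In pericytes, 66 genes in NoFR against NoFC became 36 with DESeq2, 30 at quantile 0.95 and 21 with MULTIseqDemux, 5 in FR against NoFR became 0 to 17, and 0 became at most 1 in FC against NoFC and 8 in FR against FC. Few UMIs limit the Acta2 and Dcn cells: 10% and 18% of genes with a log2 fold of 1 were recovered against pericytes in simulated counts.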
